A study of Mus musculus with 2 samples.

Results

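Malat1, Neat1, Meg3, Miat, Snhg11 and Rmst are 6 RNAs grouped here as nuclear long non-coding RNAs. They were taken by symbol from the 32285 genes of the deposited matrices, and all 6 symbols were found. The matrices came from mouse retina profiled by droplet single-cell RNA sequencing on the 10x Genomics platform, which reads transcripts at the 3′ end. Of the pair of libraries, 1 came from mice kept under short-wavelength light and 1 from mice kept under full-spectrum white light. In both, exposure began at postnatal day 14 and lasted 2 weeks. The labels name no strain, genotype, sex or number of animals. The questions were where in the retina each RNA was found, how its share moved with the cytoplasmic RNA of rods, and how it differed between the light conditions.

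Most messenger RNAs are exported to the cytoplasm, whereas nuclear long non-coding RNAs stay behind and work at chromatin or in nuclear bodies. Malat1 collects in nuclear speckles, the stores of splicing factors, and Neat1 is the scaffold on which paraspeckles are built. Mouse rods are known for a small cell body that is mostly nucleus, so nuclear RNA can take a large part of what a dissociated rod yields.

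The 3′ end is the part this assay reads, and the ends of Malat1 and Neat1 are unusual. Malat1 and the long isoform of Neat1 are known to be cut by RNase P rather than polyadenylated, and to be protected by a triple helix in which U-rich stretches hold an A-rich tract, whereas the short isoform of Neat1 is polyadenylated. The elements are shown because they are the shared mark of these 3′ ends. Each is printed 5′ to 3′ as DNA letters from the GENCODE vM21 transcripts (GRCm38/mm10), with both U-rich motifs and the closing A-rich tract in capitals.

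Malat1: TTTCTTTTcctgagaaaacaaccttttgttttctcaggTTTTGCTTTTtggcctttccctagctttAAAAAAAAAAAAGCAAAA

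Neat1: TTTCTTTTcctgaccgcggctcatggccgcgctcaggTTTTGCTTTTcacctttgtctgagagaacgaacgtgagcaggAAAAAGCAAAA

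The Malat1 element lies at chr19:5795982-5796065 on the minus strand, 292 bases before the end of the annotated transcript. The Neat1 element lies at chr19:5824708-5824797 on the minus strand and closes its annotated transcript. Searched on the transcript strand alone, with gaps of at most 60 bases, the 3 motifs spelled by the capitals, in this order and with 5 or more A before the closing GCAAAA, were found in 2 of 141767 transcripts, and these were Malat1 and Neat1. The 12 A in the Malat1 element are the longest run of A in that transcript, and the longest run in Neat1 was 7. A run of 8 or more A was not rare: 50.2% of the 6335 transcripts of 5000 to under 10000 bases hold one. The match is a description of the letters, and no priming site was measured.

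Malat1 (ENSMUSG00000092341) spans chr19:5795690-5802672 and Neat1 (ENSMUSG00000092274) spans chr19:5824708-5845478, both on the minus strand, each with a longest transcript of 1 exon, and 22036 bases apart. Meg3 (ENSMUSG00000021268; chr12:109541001-109571726, plus strand) is a maternally expressed imprinted RNA. Miat (ENSMUSG00000097767; chr5:112213228-112229395, minus strand) is also known as Gomafu and is a neuronal nuclear RNA. Snhg11 (ENSMUSG00000044349; chr2:158375638-158386145, plus strand) is a host gene of small nucleolar RNAs, and GENCODE vM21 types it as protein coding. Rmst (ENSMUSG00000112117; chr10:92071037-92165170, minus strand) is known for its work with the transcription factor SOX2 in neural cells. The other 5 genes are typed as lincRNA. All 6 overlap smaller gene models, most of them predicted.

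The short-wavelength library held 16106 barcodes and 51681469 UMIs (unique molecular identifiers, each a captured molecule), and the white-light library 5707 barcodes and 20952589 UMIs. The libraries shared 26 barcodes. Cells were put into classes by marker UMIs, at least 10 of them from at least 3 markers, so every class name below means "like" that type. After filtering, 13223 short-wavelength and 4970 white-light cells were rods, 425 and 212 cones, 121 and 57 rod bipolar cells, 94 and 44 Müller glia, 44 and 23 microglia or macrophages, and 19 and 10 cone bipolar cells. No cell passed the amacrine or ganglion cell gate alone, and 1 white-light cell passed the horizontal cell gate alone. Median depth was 2321 and 2715.5 UMIs in rods, and between 3754.5 and 7604.5 in cones, rod bipolar cells, Müller glia and microglia or macrophages. Rod RNA was present in every class, and whether as free RNA or in doublets was not tested: Gnat1, the rod transducin subunit, stood at 720 to 1953 CPM (counts per 1000000 UMIs) in these 4 other classes, against 3225 and 3537 CPM in rods. With 1 library per light condition there is no replicate and no test. Intervals are at 95% and cover counting error only, and levels are UMIs at the 3′ end, so levels are compared between classes within a gene and not between genes.

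Malat1 was found in nearly every cell and differed in share between classes. It took 5.62% of all UMIs in short-wavelength rods and 5.06% in white-light rods. In Müller glia, the radial glia that span the retina, the share was 9.0% and 8.40%. Cones held 4.32% and 3.76%, and rod bipolar cells, the first relay of the rod pathway, 4.21% and 4.37%. Microglia or macrophages, the resident immune cells, held 2.43% and 2.80%. The order was thus the same at both ends in both libraries: Müller glia highest, then rods, and microglia or macrophages lowest, with cones and rod bipolar cells between them in changing order. The difference was seen in cells as well as in sums. The middle 50% of cells ran from 6.79% to 10.3% in short-wavelength Müller glia and from 4.77% to 6.63% in short-wavelength rods, so the boxes did not meet. In short-wavelength microglia or macrophages it ran from 1.69% to 2.81%, below both. In white light the Müller glia ran from 6.05% to 9.89% and the rods from 4.05% to 6.05%, so the boxes met at their edge. In each of these 5 classes and both libraries Malat1 had more UMIs than any other gene.

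**Figure D1:**
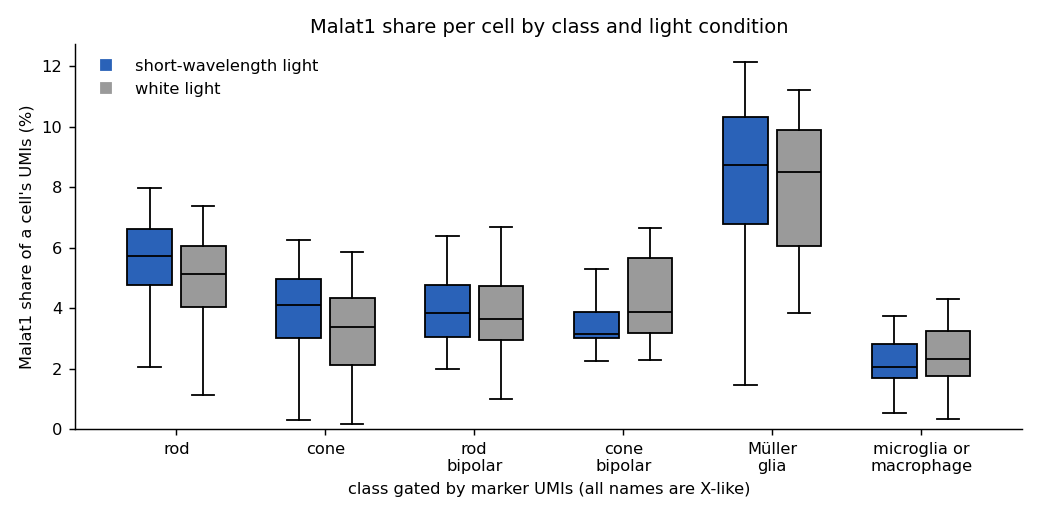
The vertical axis is the Malat1 share of each cell's UMIs in percent, by class and light condition. Lines are medians, boxes the middle 50% of cells and whiskers the 5th to 95th percentile; Müller glia (medians 8.75% and 8.50%) stand highest and microglia or macrophages (2.06% and 2.33%) lowest.

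Erythrocytes should hold no nucleus, but not all barcodes that passed their gate had the markers of erythrocytes alone. In 7 short-wavelength cells of that gate the Malat1 share was 1.49%, and in 41 white-light cells 3.84%. Erythrocyte markers together stood at 688000 CPM in the former and 51752 CPM in the latter. Rod markers stood at 7906 and 43279 CPM, the white-light value above the 28807 CPM of white-light rods. The white-light cells of that gate also held 4775 CPM of Gnat1, and the short-wavelength cells 1138 CPM. The part of rod RNA in the Malat1 of these barcodes was not tested.

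Neat1 was highest in microglia or macrophages, at 240 CPM (71 UMIs) in the short-wavelength and 142 CPM (25 UMIs) in the white-light library. Müller glia followed with 36.5 CPM and 59.7 CPM on 20 UMIs each. Rods held 14.7 and 10.6 CPM, rod bipolar cells 17.2 and 15 CPM, and cones 13.7 and 4.59 CPM. The intervals of the microglia or macrophage class (187 to 303 and 91.6 to 209 CPM) did not meet those of rods, rod bipolar cells or cones in either library. In white light they met the interval of Müller glia (36.5 to 92.2 CPM) at the edge. Of microglia or macrophages, 59.1% and 56.5% had a Neat1 UMI, against 4.02% and 3.42% of rods at a far lower depth (medians 7429.5 and 6998 against 2321 and 2715.5 UMIs). With every cell thinned to 1000 UMIs, 17.9% of short-wavelength microglia or macrophages and 1.48% of rods had one. In white light the thinned shares were 0 of 22 cells and 1.04%, so the difference in detection was not seen there at that depth. Microglia or macrophages were thus lowest for Malat1 and highest for Neat1, while Müller glia were highest for Malat1 and came next for Neat1.

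Among the classes compared here, Meg3 was high in bipolar cells and in part of the Müller glia. In rod bipolar cells its level was 1035 CPM under short-wavelength light and 811 CPM under white light, and 81.8% and 75.4% of the cells had a UMI. Cone bipolar cells held 904 CPM on 19 cells and 524 CPM on 10 cells. Müller glia held 349 and 558 CPM. The 21 short-wavelength cells that passed no gate held 1600 CPM of Meg3 (1184 to 2115), and the 28 white-light ones 362 CPM. Their amacrine markers together stood at 653 and 1087 CPM, Müller glia markers at 914 and 1709 CPM and bipolar markers at 1208 and 1139 CPM. Rod markers stood at 4343 and 10821 CPM in them, and which cells carried this Meg3 was not tested. The white-light cell in the horizontal cell gate held 29 Meg3 UMIs of 17875. Cones stood at 50.5 and 22.9 CPM and rods at 7.73 and 7.57 CPM. In microglia or macrophages it was found in 0 of 44 short-wavelength cells, which allows a share of up to 6.82% (3 counts of the total), and in 1 of 23 white-light cells. Thinned to 1000 UMIs, 54.3% and 52.6% of rod bipolar cells still had a Meg3 UMI, against 0.749% and 0.893% of rods. Rods of the short-wavelength library had a UMI in 1.49% of cells at full depth. Part of the rod total sat in few barcodes: in the short-wavelength library 1 rod, also rich in Snhg11, held 31 of the 291 Meg3 UMIs. Rian, a non-coding RNA of the same imprinted locus, had the same 2 classes on top, with 99.4 and 72.8 CPM in rod bipolar cells and 32.9 and 71.7 CPM in Müller glia, against 0.718 and 1.26 CPM in rods.

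Among the classes compared here, Rmst was highest in Müller glia. Müller glia held 617 CPM (338 UMIs) in the short-wavelength and 663 CPM (222 UMIs) in the white-light library. Rods held 1.14 and 1.32 CPM, and cones and rod bipolar cells held at most 2 UMIs per library. No Rmst UMI was found in either library's microglia or macrophages, or in their cone bipolar cells. The 21 short-wavelength cells that passed no gate held 457 CPM (250 to 767, 14 UMIs in 7 cells). The 28 white-light ones held 1 UMI. Barcodes that passed several gates held 11 UMIs in each library. Of Müller glia, 74.5% and 70.5% had a UMI, against 0.318% and 0.423% of rods; thinned to 1000 UMIs, the shares were 39.1% and 33.3% against 0.121% and 0.149%. Most Müller glia with a Meg3 UMI also had an Rmst UMI, while many with an Rmst UMI had none of Meg3. Counts per cell were low, so a cell without a UMI may still hold the RNA. In the short-wavelength library 36 of 94 Müller glia held both, 5 held Meg3 alone, 34 held Rmst alone and 19 held neither, and in the white-light library the counts were 18, 2, 13 and 11 of 44. Meg3 was concentrated: 16 short-wavelength cells with at least 5 Meg3 UMIs held 73.8% of the class's Meg3 UMIs, and 15 white-light cells held 92.0%. Of the 187 white-light Meg3 UMIs, 18 and 22 lay in the 2 Müller barcodes described below for Snhg11.

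Snhg11 was sparse, with 248 and 330 UMIs in the whole libraries. Cone bipolar cells held 301 CPM (39 UMIs in 9 of 19 cells) and 108 CPM (7 UMIs in 5 of 10 cells). Rod bipolar cells held 8 and 1 UMIs, cones 2 and 3, and rods 3.43 and 2.28 CPM. Much of the rest sat in a few barcodes. Those with at least 5 Snhg11 UMIs numbered 12 in the short-wavelength library and held 65.0% of the Snhg11 UMIs of kept cells, and 5 in the white-light library held 79.6%. The richest, with 116 Snhg11 UMIs in white light, passed several gates and held 230 horizontal cell marker UMIs, and the next, with 66, was the cell that passed the horizontal cell gate alone. Among the 12 short-wavelength barcodes, 4 had passed the rod gate and held 90 of the 129 rod UMIs, and 3 of those 4 held 16 or 17 amacrine marker UMIs. Those 3 held 30, 24 and 16 of the 129. The 38 UMIs of white-light rods lay in 37 cells with at most 2 each. In white light 2 barcodes in the Müller gate, with 12 and 14 amacrine marker UMIs, held all 75 Snhg11 UMIs of that class. Amacrine markers stood at 460 CPM in short-wavelength Müller glia, which held no Snhg11 UMI, and at 454 CPM in white-light ones. Such marker UMIs were thus not particular to these 2 barcodes.

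Miat gave almost nothing to describe, with 0 UMIs in the short-wavelength and 2 in the white-light library, 1 in a rod and 1 in a Müller glial cell. None in 13223 rods allows a share of up to 0.0227% of cells with a UMI (3 counts of the total). The longest run of A in its transcript was 4. Whether the RNA was absent or not captured by this 3′ assay was not tested.

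**Figure D2:**
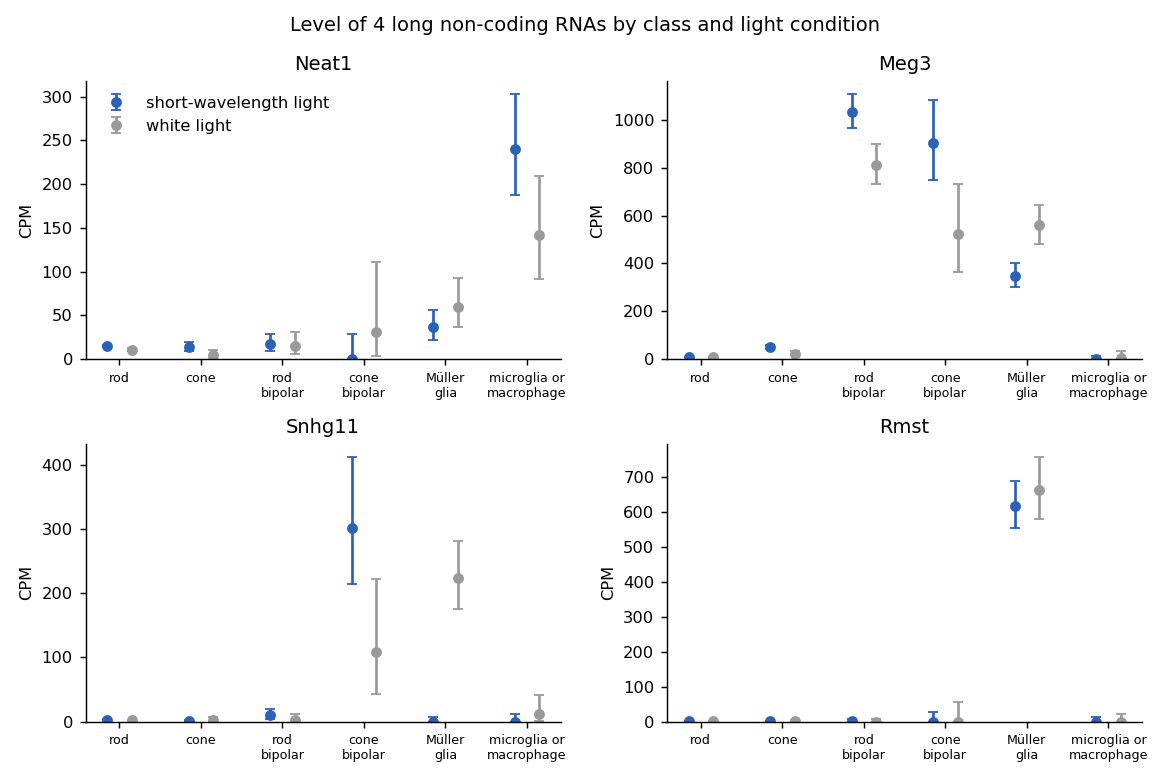
CPM of Neat1, Meg3, Snhg11 and Rmst on linear axes from 0, by class and light condition; points are sums over the cells of a class and bars 95% counting intervals. Among the classes shown, Neat1 peaks in microglia or macrophages (240 and 142 CPM) and Meg3 in bipolar cells (rod bipolar cells 1035 and 811 CPM). Rmst peaks in Müller glia (617 and 663 CPM). The white-light Snhg11 point in Müller glia rests on 2 barcodes.

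The genes with the class pattern most like each RNA were sought over the 10 sums of 5 classes in 2 libraries, by the Pearson correlation of log2(CPM + 5) among 10948 genes. The points share library and depth, and the values are descriptions. Malat1 was most like Eml6 (r = 0.991), Ncam1 (a neural cell adhesion molecule) and Zfp532. Neat1 was most like Lair1 (r = 0.978), a leukocyte receptor, with Wdr26 and Tsc22d2 after it. Meg3 was most like Robo2 (r = 0.991), an axon guidance receptor, then Cacna2d1, a calcium channel subunit, and Ldb2. Rmst was most like Lypd6, Efemp1 and Adamts18 (r = 0.999 each). Snhg11 was most like Mgat4c (r = 0.945), Zfp951 and Sgcd, a pattern set by the 2 white-light barcodes named above. Between Malat1 and Neat1 the correlation was -0.33.

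Within rods, cells with a higher Malat1 share had lower mitochondrial and ribosomal protein RNA shares. The rods of each library were ordered by Malat1 share and divided into 5 equal parts, and all other shares were taken over a total without Malat1, so that its own level could not lower them. The median Malat1 share went from 3.59% in the bottom part to 7.46% in the top part in short-wavelength rods, and from 2.54% to 6.86% in white-light rods. Mitochondrially encoded transcripts, which are made outside the nucleus, took 1.99%, 0.716%, 0.532%, 0.439% and 0.431% of UMIs from bottom to top in the short-wavelength library. In the white-light library they took 2.29%, 1.03%, 0.657%, 0.530% and 0.515%. The top part thus held 0.217 and 0.224 times the mitochondrial share of the bottom part, and most of the fall lay between the first part and the next. Messenger RNAs of cytosolic ribosomal proteins went from 4.41% to 1.42% and from 5.30% to 1.47%, ratios of 0.322 and 0.277. Depth did not order the parts: median UMIs were 2390, 2412, 2378, 2319 and 2143.5 in the short-wavelength library. In white light they were 2179.5 in the bottom part and between 2535 and 2915 in the others.

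Across single rods the Spearman correlation of the Malat1 share with the mitochondrial share was -0.38 (13223 cells) and -0.45 (4970 cells), and with the ribosomal share -0.47 and -0.57. With total UMIs it was -0.04 and 0.10. These cells share a library and its free RNA, so the values are given as descriptions. The low end formed a tail: 4.98% and 7.65% of rods had a Malat1 share under 2%. In cones the tail was longer, with 16.0% and 22.6% of cells under 2%, and there the Malat1 share was higher in deeper cells (Spearman correlation 0.50 on 425 cells and 0.47 on 212 cells). The cones of the bottom part had a median depth of 1967 UMIs in the short-wavelength library, against 5703 to 7268 in the other parts.

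Neat1 was higher in the top than in the bottom Malat1 part of rods in both libraries, but not in step with Malat1. This direction was the common one: of 6971 genes with at least 1000 UMIs in rods, 69.9% and 69.1% were higher in the top part. Over the total without Malat1, Neat1 stood at 10.7, 18.4, 16.5, 14.7 and 17.7 CPM from the bottom to the top Malat1 part in short-wavelength light. The bottom part was lowest, its interval (8.34 to 13.4 CPM) below those of the next part (15.4 to 21.9) and the top part (14.6 to 21.3), and the upper 4 parts had no order. In white light the values were 8.20, 6.74, 11.8, 14.3 and 13.9 CPM, with the lower 2 parts lowest. The intervals of the bottom (5.08 to 12.5) and top part (10.0 to 18.8) overlapped, and those of the second part (4.22 to 10.2) and the fourth (10.7 to 18.8) did not meet.

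**Figure D3:**
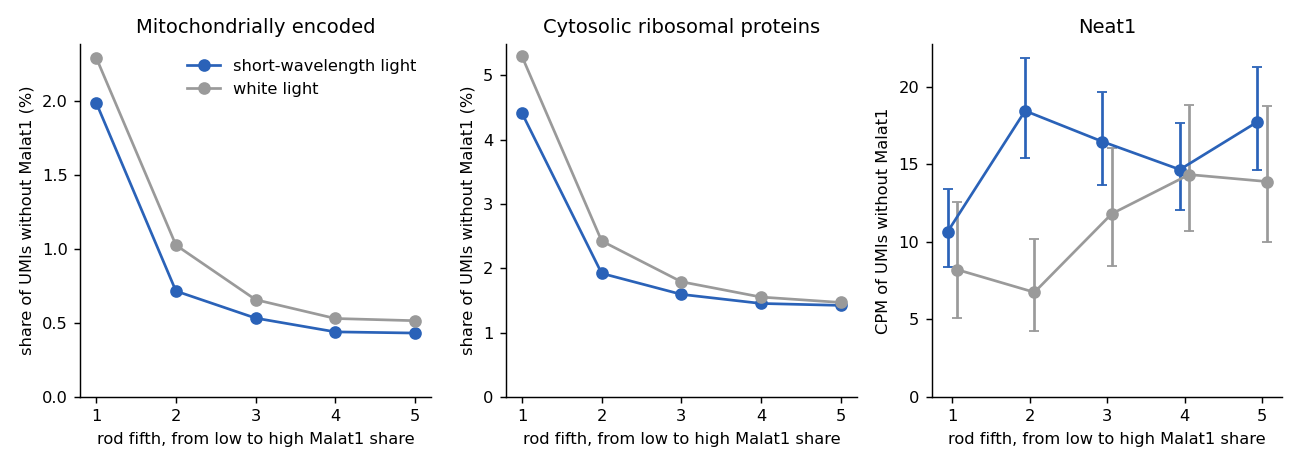
Rods of each library in 5 parts from low to high Malat1 share (horizontal axes), with the mitochondrial and ribosomal protein shares of UMIs without Malat1 in percent and Neat1 in CPM with 95% counting intervals. The mitochondrial share drops from 1.99% to 0.431% and from 2.29% to 0.515%, most steeply at the first step, and Neat1 is lower in the bottom than in the top part (10.7 against 17.7 and 8.20 against 13.9 CPM).

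Among 6971 genes with at least 1000 UMIs in rods, the median log2 ratio of the top to the bottom Malat1 part was 0.21 in short-wavelength and 0.28 in white light, and 69.9% and 69.1% of these genes were higher in the top part. The sign was the same in both libraries for 6306 genes. The ratio is on the log2(CPM + 5) scale, and the members of each list below are read against these medians and shares. The list for nuclear speckles and the SR family of splicing factors holds 23 genes, and it also counts the RNA-binding proteins Qk and Celf4. Of these 23 genes, 22 were higher in the top part in each library, with medians of 0.39 and 0.53. Among them were Rbm25 (0.56 and 0.97), Tra2a (0.58 and 0.81) and the kinase Clk4 (0.55 and 0.65), all splicing regulators. The exception was Srsf3 (-0.45 and -0.60). Of 12 paraspeckle protein genes, 8 were higher, with medians of 0.18 and 0.25, below the medians of all genes. Sfpq, a core paraspeckle protein, had 0.53 and 0.85, and Hnrnpk -0.38 and -0.56. Of 17 other long non-coding RNAs, 9 were higher and 8 lower in each library. At the upper end stood Mir124a-1hg, the host of a neuronal microRNA (0.70 and 0.92), and Kcnq1ot1, an imprinted nuclear RNA (0.62 and 0.85). At the lower end stood the snoRNA host genes Gas5 (-1.01 and -1.32) and Snhg6 (-0.85 and -1.26). All 13 mitochondrially encoded genes (medians -2.19 and -2.14) and all 78 ribosomal protein genes (medians -1.65 and -1.84) were lower in the top part. By single genes, Rbm20, a splicing factor, Cldn7, Atg4a, Rnpc3, a minor spliceosome protein, and Acp6 led on the higher side, with Rbm20 at 0.82 and 0.94. On the lower side were Ndufa4, Ndufa1, Atp5e, Fau and Cox6c, which encode respiratory chain, ATP synthase and ribosomal components, with Ndufa4 at -1.93 and -2.08.

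**Figure D4:**
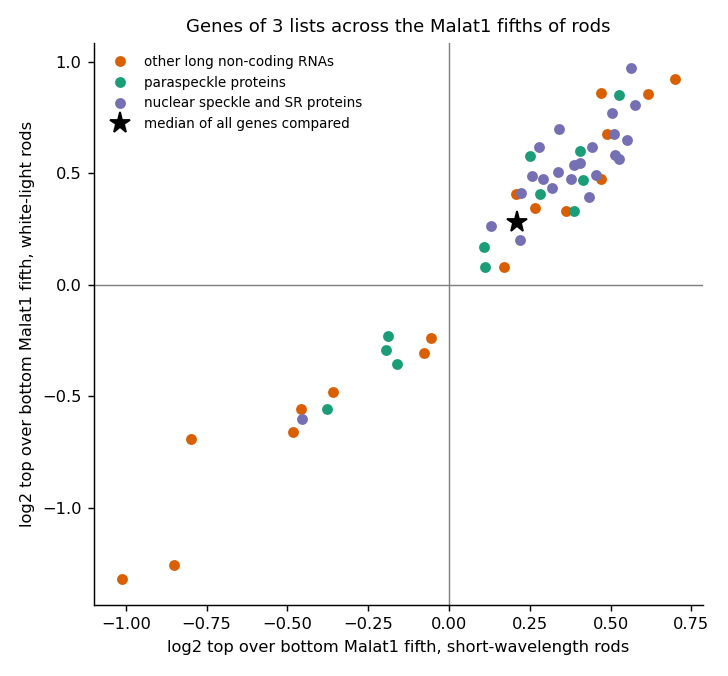
Each point is a gene of 1 of 3 lists, with its log2 ratio of the top to the bottom Malat1 part in short-wavelength rods (horizontal) and in white-light rods (vertical); the star is the median of all 6971 genes (0.21 and 0.28). Speckle and SR protein genes lie above 0 in both libraries except Srsf3, and other long non-coding RNAs spread from Gas5 (-1.01 and -1.32) to Mir124a-1hg (0.70 and 0.92).

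Between the light conditions, Malat1 summed over all rods or all cones was slightly higher under short-wavelength light. In rods it stood at 56215 against 50632 CPM, a ratio of 1.11. In cones it stood at 43188 against 37616 CPM, a ratio of 1.15 (1.14 to 1.16). The cone ratio was not above 1 in every part of the class: by ribosomal share it ran from 1.11 to 0.371. The rod interval reached just below 1.1 with median-of-ratios scaling (1.099 to 1.105), and the cone interval with no doublets removed (1.08 to 1.1) and with the gate at 5 UMIs (1.09 to 1.11), so that the calls beyond 1.1-fold were not kept there. In Müller glia the ratio was 1.07 (1.05 to 1.09). In rod bipolar cells it was 0.963 (0.947 to 0.980), and this side of 1 was not kept when cells were thinned to 1000 UMIs (1.1), when per-cell shares were averaged (1.04) or with the gate at 20 UMIs (1.03). In microglia or macrophages Malat1 was lower, at 24284 against 27952 CPM (0.869, 0.838 to 0.901), and thinned to 1000 UMIs the ratio was 0.969 (0.869 to 1.08). The markers of this class together stood at 24061 against 17719 CPM and Gnat1 at 744 against 985 CPM, and their part in the difference was not tested. The spread between animals or libraries is unknown here, and intervals this narrow do not include it.

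A gene was counted as higher or lower where it had at least 50 UMIs in a class over both libraries and its interval lay wholly beyond 1.1-fold. In rods, 2 of the 5 RNAs with enough UMIs were higher, Malat1 and Neat1, and 0 lower, where 2.55% of all 12852 genes were higher and 3.42% lower. In cones both RNAs with enough UMIs, Malat1 and Meg3, were higher, where 3.24% of genes were higher and 3.35% lower. In rod bipolar cells Meg3 was higher and Malat1 neither, where 3.45% of genes were higher and 4.21% lower. In Müller glia Meg3 and Snhg11 were lower and Malat1 and Rmst neither, where 1.82% were higher and 2.3% lower. Neither of these lower calls was kept without the barcodes with at least 5 Snhg11 UMIs. In this class those are the 2 white-light barcodes described for Snhg11. In microglia or macrophages Malat1 was lower and Neat1 neither, where 6.38% were higher and 8.12% lower. Genes with more UMIs have narrower intervals, and Malat1 has the most, so its calls are not comparable with those of sparse genes.

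The Malat1 ratio in rods was also taken within parts of the class. Rods of both libraries were divided together into 5 parts by mitochondrial share, and the ratio was 1.09, 1.08, 1.06, 1.09 and 1.1 from low to high, each below the 1.11 of all rods. By ribosomal share it lay between 1.06 and 1.11 in all 5 parts. By depth it was 1.39 in the shallowest part (503 to 1834 UMIs), 1.13, 1.04, 1.05 and 1.13 in the deepest. White-light rods held more mitochondrial RNA (0.943% against 0.808% of UMIs without Malat1) and more ribosomal protein RNA (2.37% against 2.13%), and 11 of 13 mitochondrial and 25 of 78 ribosomal protein genes were lower under short-wavelength light by the same rule. In cones the ratio was less even. It was 0.371 in the part with the highest ribosomal share, which held 39 short-wavelength and 89 white-light cells, and 0.974 to 1.11 in the other 4 parts. By mitochondrial share it was 1.23, 0.997, 1.12, 1.14 and 1.21. By depth it was 0.790 in the shallowest cones and 1.11 to 1.2 in the others. Rod RNA in cones also differed, with Gnat1 at 965 against 1953 CPM. The part of that rod RNA, of depth and of ribosomal share in the cone ratio was not tested.

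Neat1 was higher under short-wavelength light in rods, at 14.7 against 10.6 CPM (554 and 176 UMIs), a ratio of 1.39 (1.17 to 1.66); thinned to 1000 UMIs it was 1.4 (1.02 to 1.95), no longer wholly beyond 1.1-fold. In microglia or macrophages, where its level was highest, the ratio was 1.70 (1.06 to 2.79) on 44 and 23 cells. In cones it rested on 35 and 5 UMIs and in Müller glia on 20 and 20, too few for the rule. In both classes with enough UMIs Neat1 thus had a ratio above 1. That of Malat1 was above 1 in rods and below 1 in microglia or macrophages, where it was 0.969 (0.869 to 1.08) thinned to 1000 UMIs. In microglia or macrophages the markers of the class stood at 24061 against 17719 CPM and Gnat1 at 744 against 985 CPM. The part of rod RNA in either ratio of that class was not tested.

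Meg3 differed in opposite directions between classes. Under short-wavelength light it was higher in rod bipolar cells (1035 against 811 CPM, ratio 1.28, 1.13 to 1.44) and in cones (50.5 against 22.9 CPM, 2.20, 1.43 to 3.53), and lower in Müller glia (349 against 558 CPM, 0.625, 0.508 to 0.768). In rods the ratio was 1.02 (0.826 to 1.27). The cone value rested on 129 and 25 UMIs, and with the gate at 20 marker UMIs it was 1.11 and with cells thinned to 1000 UMIs 3.42. In both of these settings the cone call beyond 1.1-fold was not kept, while with no doublets removed it was (2.00, 1.34 to 3.07). The rod bipolar value was 1.06 with that gate, 1.12 thinned and 1.19 with no doublets removed. In all 3 settings the rod bipolar call was not kept. In rod bipolar cells the bipolar markers together stood at 18515 against 15384 CPM and Gnat1 at 855 against 1563 CPM, and their part in the Meg3 value was not tested. In cones the cone bipolar markers together stood at 21.1 against 3.67 CPM and Gnat1 at 965 against 1953 CPM. The full bipolar marker list stood at 450 against 459 CPM there. The part of bipolar and rod RNA in the cone Meg3 value was not tested. Without the barcodes that hold at least 5 Snhg11 UMIs, the Müller value was 0.744 (0.597 to 0.928) and the rod value 0.769. Rian had 99.4 against 72.8 CPM in rod bipolar cells, a ratio of 1.37 whose interval (0.905 to 2.10) held 1. In Müller glia it had 32.9 against 71.7 CPM, on too few UMIs for the rule.

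Rmst in Müller glia did not differ beyond counting error, at 617 against 663 CPM (ratio 0.931, 0.784 to 1.11, counting error only). Thinned to 1000 UMIs the ratio was 1.17, outside that interval, and with the gate at 20 marker UMIs it was 0.830. Snhg11 in rods had a ratio of 1.5 (1.04 to 2.22), which turned to 0.454 without the barcodes with at least 5 Snhg11 UMIs. In Müller glia Snhg11 had 0 short-wavelength and 75 white-light UMIs, all in the 2 barcodes named above, so no fold is given.

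**Figure D5:**
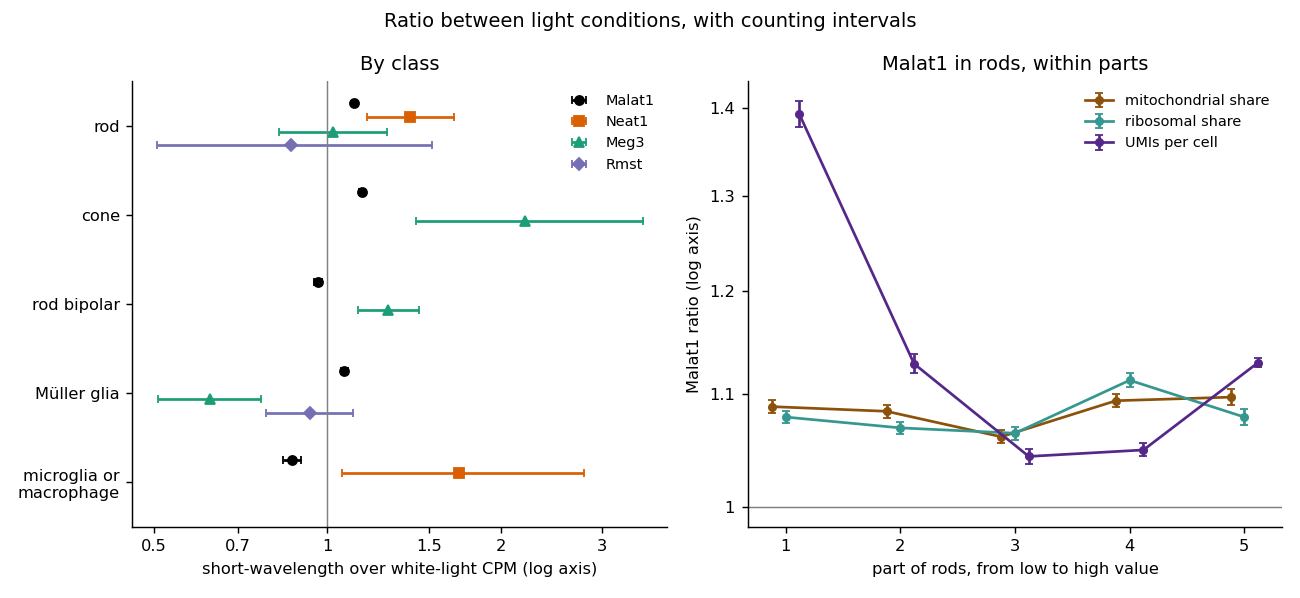
Left, the ratio of short-wavelength to white-light CPM by class on a log axis with 95% counting intervals, for 4 RNAs where a class held at least 50 UMIs; Malat1 in rods (1.11) and cones (1.15) lies above 1 and in microglia or macrophages (0.869) below it, while Meg3 lies on both sides. Right, the Malat1 ratio in rods within 5 parts by mitochondrial share, ribosomal share or depth, on a log axis; all 15 values lie above 1, the highest (1.39) in the shallowest cells.

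The light conditions were also compared in rods for other long non-coding RNAs and for genes of nuclear body proteins. Of 20 other long non-coding RNAs with enough UMIs, 4 were higher and 0 lower, where 2.55% of all genes were higher and 3.42% lower, and their median log2 ratio was -0.0038 against 0.0075 for all genes. Snhg3 had the highest ratio (1.26) and Sox2ot the lowest (0.590 on 40 and 30 UMIs). Of 12 paraspeckle protein genes 0 were higher and 0 lower, with ratios from 0.872 (Rbm14) to 1.09 (Hnrnph3). Of 23 speckle and SR protein genes 0 were higher and 1 lower, with ratios from 0.868 (Tra2b) to 1.11 (Srsf1). In cones 4 of 18 other long non-coding RNAs were higher and 1 lower, where 3.24% of all genes were higher and 3.35% lower, with ratios from Epb41l4aos (0.646) to Jpx (1.71), an activator of the X inactivation RNA.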

How the data were processed

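The deposited matrices give raw UMI counts for each gene and barcode. Per the file headers the authors used Cell Ranger 9.0.0. The submitters' processing notes name mm10, Seurat and edgeR. Whether intronic reads were counted is not given in the sources used here. Barcodes were kept from 300 genes upward and up to 20% mitochondrial counts. Scrublet (scanpy 1.11.5) set no usable threshold, so the highest doublet scores were removed at 0.8% per 1000 barcodes in each library, 2072 and 259 barcodes. Non-rod cells needed 10 UMIs from 3 markers of their class, barcodes passing several non-rod gates were left out, and rods passed the rod gate alone. Counts were summed per class and library. Shares have exact Clopper-Pearson intervals, and ratios of CPM have exact conditional binomial intervals, checked on simulated data. Named genes were the 3 most alike, the 5 at each end of the rod parts, and list extremes. The other list genes and the barcodes singled out were chosen after their values were seen. The RNAs and lists were chosen with earlier results of these data known. Alternatives varied filters, gates, depth, totals and scaling (TMM in edgeR 4.0.16).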

Additional observations from a re-analysis of the deposited data

Results flagged for a closer look

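Several light ratios (short-wavelength over white-light CPM) lay on opposite sides of 1 in different classes, with 1 library per condition, and the differences between classes were not tested. Malat1 had 1.11 in rods, 1.15 in cones and 1.07 in Müller glia, against 0.963 in rod bipolar cells and 0.869 in microglia or macrophages. Meg3 had 2.20 in cones and 1.28 in rod bipolar cells, against 0.625 in Müller glia. Snhg11 had 1.5 in rods, where 4 barcodes held 90 of 129 short-wavelength UMIs, against 0 in Müller glia, where 2 white-light barcodes held all 75 UMIs.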

How the results depend on the processing

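Of 11 alternatives with an interval, the call beyond 1.1-fold was lost in 1 for Malat1 in rods (median-of-ratios scaling), 2 in cones (no doublets removed, gate of 5 UMIs) and 1 in microglia or macrophages (thinned). It was lost in 1 for Neat1 in rods (thinned), and for Meg3 in 2 in cones, 3 in rod bipolar cells and 2 in Müller glia. With a gate of 20 UMIs Snhg11 in Müller glia had 2 and 0 UMIs, the opposite direction. In rods the Malat1 ratio was 1.11 from cells with at least 1500 UMIs, 1.13 as a mean of per-cell shares, 1.12 over a total without Malat1, 1.11 without mitochondrial and ribosomal protein genes, and 1.1 with TMM and with median-of-ratios scaling. In cones it was 1.09 with no doublets removed, 1.1 with a gate of 5 UMIs, 1.19 as a mean of per-cell shares, 1.13 without mitochondrial and ribosomal protein genes and 1.12 under both scalings. In rod bipolar cells it was 0.988 and 1.03 with gates of 5 and 20 UMIs, 1.1 thinned and 1.04 as a mean of shares. In Müller glia the last 3 were 1.03, 1.04 and 1.05, and in microglia or macrophages 0.969 thinned and 0.906 as a mean. The mitochondrial share of rods, top over bottom Malat1 part, was 0.207 and 0.214 with Malat1 in the total, 0.253 and 0.243 at 1500 UMIs, 0.153 and 0.161 with 10 parts, 0.244 and 0.233 with no doublets removed and 0.223 and 0.240 at 500 genes and 10% mitochondrial, and 0.241 thinned in white light. The ribosomal share was 0.308 and 0.264, 0.358 and 0.292, 0.233 and 0.204, and 0.352 and 0.284 under the first 4, 0.318 and 0.304 thinned, and 0.285 at the stricter filter in white light. In cones, an alternative chosen after seeing the data, these ratios were 0.291 and 0.217 for mitochondrial and 0.523 and 0.469 for ribosomal shares. Beyond 1.5-fold, 13 genes were higher and 32 lower in rods, against 328 and 440 beyond 1.1-fold, and 277 were lower at a minimum of 200 UMIs. Of 117 ratios of the other RNAs, 106 stayed within their counting interval. No paired analysis was possible because each condition has 1 library.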

Other observations

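Other long non-coding RNAs of the fixed list also differed in level between classes. Six3os1, antisense to a retinal homeobox gene, stood at 491 and 549 CPM in short-wavelength and white-light Müller glia against 2.42 and 3.13 CPM in rods. Sox2ot, which overlaps Sox2, stood at 170 and 122 CPM in Müller glia and at 1.06 and 1.80 CPM in rods. Dleu2 was highest in microglia or macrophages, at 997 and 849 CPM, against 86.2 and 89.3 CPM in rods. In rods Mir124a-1hg stood at 1810 and 1526 CPM and Vax2os at 1116 and 984 CPM, each higher than in cones (989 and 752 CPM, and 318 and 358 CPM). Snhg14, which hosts imprinted snoRNAs, stood at 166 and 105 CPM in rod bipolar cells against 16.0 and 13.5 CPM in rods.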
